A study of Mus musculus with 20 samples.

Results

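Endothelial cells (ECs) and fibroblasts (FBs) isolated from pressure-overloaded hearts of wild-type (WT) mice were compared gene by gene. The comparison took 7 of the 20 samples of the series, the 4 WT EC samples WT-31-EC, WT-32-EC, WT-34-EC and WT-35-EC and the 3 WT FB samples WT-260-FB, WT-277-FB and WT-283-FB. These were chosen by their labels alone. The mice were WT littermates of a line that lacks the paired lncRNAs *Gadlor1* and *Gadlor2*, were 8 to 10 weeks old at surgery, and underwent transverse aortic constriction (TAC), a band on the aorta against which the left ventricle must pump, for 2 weeks. The *Gadlor*-KO samples of the same cell types, 4 KO EC and 3 KO FB samples after 2 weeks of TAC, were used for a side-by-side reading. No sham-operated ECs or FBs enter the comparison, so it describes cell types after TAC and not an effect of TAC.

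The way the cells were taken limits both groups as models. Digested heart tissue was passed over magnetic beads against CD146, and what the beads held was called ECs. CD146, encoded by *Mcam*, is carried by pericytes and smooth muscle cells as well as by ECs. FBs were taken from the flow-through with feeder removal beads, and no step that removes leukocytes is described. For ECs and for FBs, the paper states a high purity of this bead isolation, by reference to an earlier study. The sources used here do not say whether each numbered sample is a single animal, so a standard deviation measures only the spread between samples. The EC and FB tables were also normalised and filtered separately by the authors. Cell type, isolation step and table therefore cannot be told apart, and for that reason levels and differences are described without p-values. In bulk RNA, fewer cells of a type and less RNA per cell likewise cannot be told apart.

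ECs line the vessels of the heart, hold the barrier between blood and muscle, and pass fatty acids to cardiomyocytes. Their identity is known to depend on ETS, SOX-F and GATA transcription factors and on VEGF, angiopoietin and Notch signaling. Cardiac FBs derive mostly from the epicardium, carry the transcription factor TCF21 and the receptor PDGFRA, and build the collagen-rich interstitial matrix that thickens when the ventricle is pressure-overloaded. The cell types lie against each other and are known to exchange ligands, so the results are ordered from identity genes to ligands and receptors, matrix, and surface functions.

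A promoter is shown for a gene of each cell type, since the receptor gene *Tie1* and the collagen gene *Col1a2* were called together with the other markers of their cell type (values follow with the marker genes). Both windows are RefSeq promoter sequences on GRCm38.p6, from 250 bases before to 50 bases after the start, written 5′ to 3′ on the gene's strand. Capitals mark a match to the ETS motif CNGGAAGT, found here on the opposite strand. The windows are chr4:118489800-118490099 on the minus strand and chr6:4505368-4505667 on the plus strand.
*Tie1*: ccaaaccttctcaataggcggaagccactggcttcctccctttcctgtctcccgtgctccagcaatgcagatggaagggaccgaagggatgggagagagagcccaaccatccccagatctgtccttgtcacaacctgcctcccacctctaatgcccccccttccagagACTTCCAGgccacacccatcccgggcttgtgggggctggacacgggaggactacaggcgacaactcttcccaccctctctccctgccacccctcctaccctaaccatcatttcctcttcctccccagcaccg
*Col1a2*: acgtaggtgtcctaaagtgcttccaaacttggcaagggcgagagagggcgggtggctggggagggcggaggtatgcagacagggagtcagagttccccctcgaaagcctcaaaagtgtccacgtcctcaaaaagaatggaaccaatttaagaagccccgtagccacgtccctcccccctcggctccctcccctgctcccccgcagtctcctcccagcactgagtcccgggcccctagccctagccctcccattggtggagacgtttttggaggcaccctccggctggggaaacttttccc
The *Tie1* window held 1 ETS match, starting at base 169, and the *Col1a2* window held 0 matches to any of the 4 motifs searched on both strands, namely ETS (CNGGAAGT), AP-1 (TGANTCA), TEAD (GGAATG) and the TATA box (TATAAA). Each motif was searched on its own, and the ETS and TEAD letters share GGAA. The ETS motif was in 7.07% of the 523 promoters matched to genes higher in WT ECs and in 9.43% of the 594 matched to genes higher in WT FBs, against 13.9% of the 9682 matched to all genes compared and 9.67% of all 27025 promoters. The AP-1 shares were 6.69% for EC-higher genes and 7.24% for FB-higher genes, against 4.78% for all genes compared and 7.93% for all promoters. The TEAD letters were in 14.0% of promoters of EC-higher genes and 12.1% of those of FB-higher genes, against 11.98% for all genes compared and 14.6% for all promoters. TATAAA was in 10.5% for EC-higher and 12.5% for FB-higher genes, against 6.81% for all genes compared and 14.2% for all promoters. The side of the background on which a share lies thus depends on the background for AP-1, TEAD and TATAAA. A match describes letters and is not a bound site.

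The unit throughout is log2 CPM, that is log2 of counts per 1e+06 reads, rescaled so that the compared genes of each sample sum to the same linear total. A difference is WT EC minus WT FB on this log2 scale, so that positive values are higher in ECs. Values of a gene are given for WT-31-EC, WT-32-EC, WT-34-EC and WT-35-EC, then for WT-260-FB, WT-277-FB and WT-283-FB. Estimated depth was 44.7 to 55.0 M reads (M, 1e+06) in WT ECs and 22.8 to 47.5 M in WT FBs, with WT-260-FB the shallowest. WT-260-FB also stood apart in content, because mitochondrial transcripts made up 2.74% to 4.54% of the deposited CPM in WT ECs, and 59.7%, 2.07% and 3.07% in WT-260-FB, WT-277-FB and WT-283-FB. *Ddx3y* and *Xist* placed male and female mice in both groups. Counts of the gene lists are given with and without WT-260-FB, with calls higher in ECs before calls higher in FBs.

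The ECs and FBs carried the markers of their labels. *Pecam1*, which encodes the junctional adhesion molecule CD31 (GRCm38, chr11:106654217-106750628, minus strand), was at 10.63, 10.75, 10.62 and 10.62 in WT ECs, against 8.44, 3.51 and 4.92 in WT FBs. All ECs lay above all FBs, and within the FBs WT-260-FB was the highest. The means were 10.66 ± 0.06 in WT ECs and 5.62 ± 2.54 in WT FBs (SD, n = 4 and n = 3), a difference of 5.03 or 32.8-fold, with 6.44 without WT-260-FB and 3.98 without WT-277-FB. *Col1a1*, the chain that forms most of type I collagen (chr11:94936224-94953042, plus strand), was at 9.02, 8.89, 8.18 and 9.57 in WT ECs, against 13.26, 14.53 and 13.58 in WT FBs. Here every FB exceeded every EC, with means of 8.91 ± 0.57 in WT ECs and 13.79 ± 0.66 in WT FBs, a difference of -4.88, or 29.4-fold higher in FBs, and -5.14 without WT-260-FB.

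**Figure D1:**
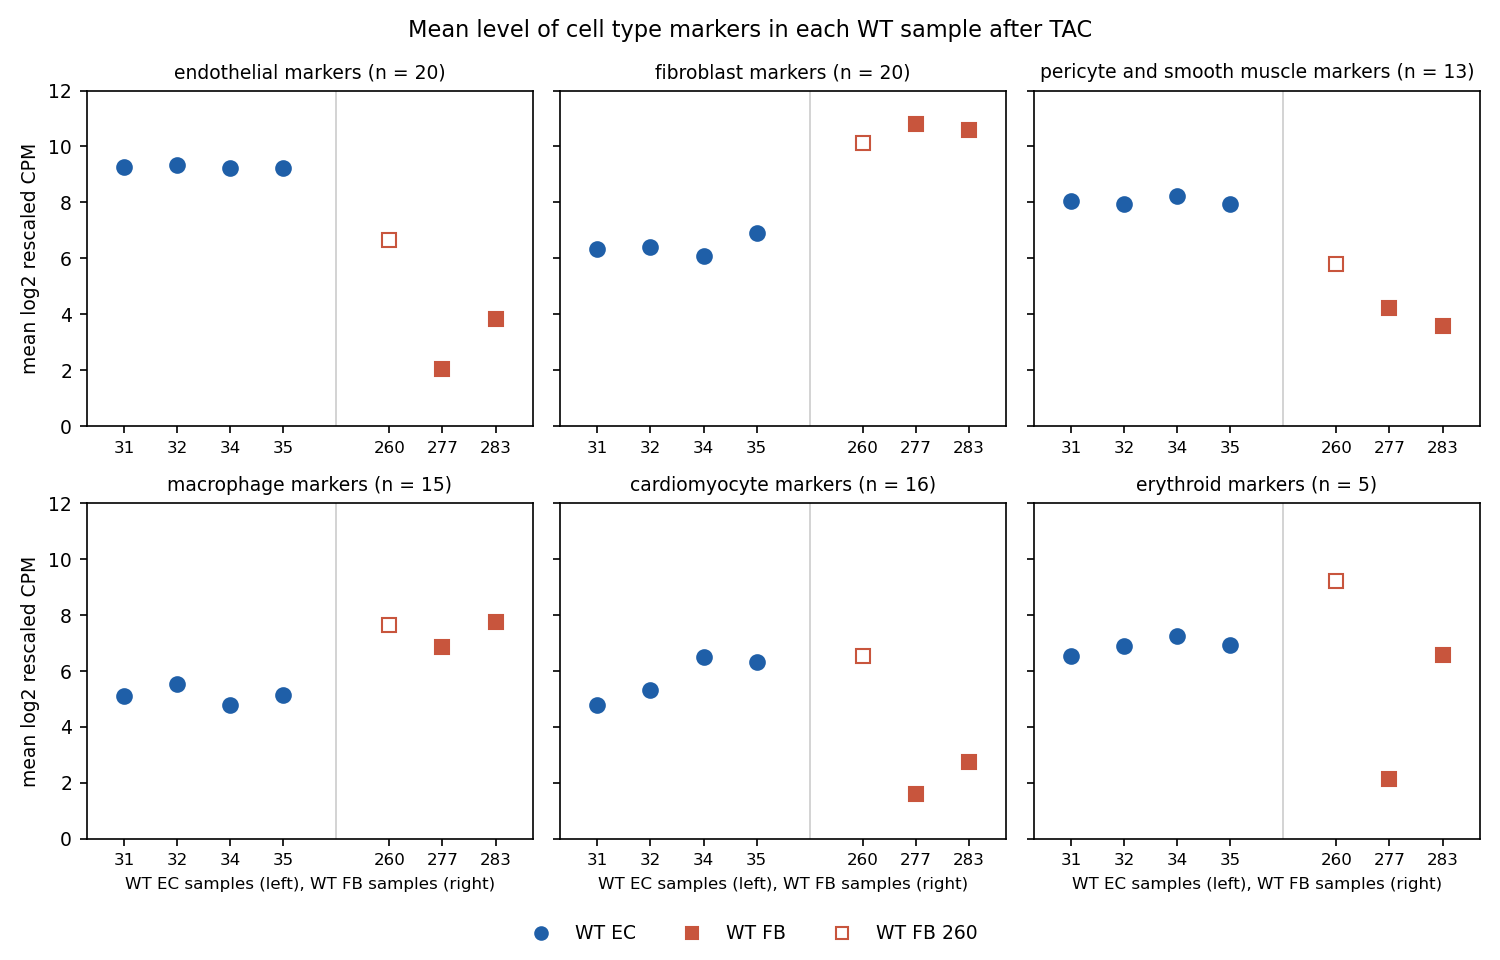
Mean level (log2 rescaled CPM) of 6 lists of cell type markers in each WT sample, with ECs to the left (circles), FBs to the right (squares) and WT-260-FB as an open square. Endothelial markers averaged 9.21 to 9.32 in the ECs and 6.65, 2.04 and 3.83 in WT-260-FB, WT-277-FB and WT-283-FB, while cardiomyocyte and erythroid markers were higher in WT-260-FB than in the other FBs.

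Over the 12779 genes compared, a gene was called when the means differed by at least 4-fold and the 4 EC and 3 FB values did not overlap. By this rule 737 genes (5.77%) were higher in WT ECs and 825 (6.46%) were higher in WT FBs, with a median difference of 0.11 over all genes. Without WT-260-FB the calls were 954 (7.47%) and 809 (6.33%), with a median of 0.21, and 720 EC-higher and 755 FB-higher genes were called both ways. The EC-higher genes had a median difference of 3.26, or 3.71 without WT-260-FB, and the FB-higher genes one of -2.77, or -2.81 without WT-260-FB. The balance between the directions moved with scaling. The values as deposited gave 1023 EC-higher and 610 FB-higher genes with the median gene shifted by 0.50, and keeping mitochondrial genes in the total gave 1239 and 464 with a shift of 0.70. Each count of a gene list is to be read against 5.77% and 6.46%. The groups did not overlap for 7009 of the 12779 genes, called or not, and a called gene has no overlap by the rule. Absence of overlap alone is therefore common and does not set a gene apart.

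The spread was not the same in both cell types. For the genes higher in WT ECs, the median SD was 0.16 among ECs and 1.05 among FBs. Relative to the EC mean, these genes had a median level of -2.31 in WT-260-FB, -3.90 in WT-277-FB and -3.67 in WT-283-FB. Genes higher in WT FBs had a median level of -2.71 to -2.96 in the 4 ECs relative to the FB mean. Of the EC-higher genes, 55 had at least 1 FB library at 3 reads or fewer, so that their differences depend on how a level near 0 reads was set. The size of an EC-higher difference also rested on single FB libraries, since it moved by over 1.5 times for 344 of the 737 genes without WT-260-FB, 223 without WT-277-FB and 54 without WT-283-FB. With these samples left out in turn, 720, 674 and 694 of the 737 kept the call. The median difference of all 737 was then 3.71, 3.02 and 3.09. Of the 825 FB-higher genes, 755, 779 and 780 kept the call.

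The 20 endothelial markers had 19 genes called higher in WT ECs (20 without WT-260-FB) and a median difference of 5.27. That median was 6.51 without WT-260-FB and 4.23 without WT-277-FB. *Cdh5*, which encodes the VE-cadherin of endothelial junctions, was at 11.83, 11.98, 11.67 and 11.79 in WT ECs, against 8.42, 1.496 and 5.26 in WT FBs. No FB reached an EC, and WT-277-FB was the lowest sample. The difference was 6.76, with 8.44 without WT-260-FB and 4.98 without WT-277-FB. *Tie1*, an orphan receptor of the angiopoietin system (chr4:118471191-118490061, minus strand), was at 10.50, 10.49, 10.33 and 10.30 in WT ECs, against 7.72, 1.41 and 4.33 in WT FBs. The FBs spread over several log2 units, in the order WT-260-FB, WT-283-FB, WT-277-FB, and none reached an EC.

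Other endothelial markers had the same layout. *Egfl7*, a secreted factor that ECs lay into their matrix, differed by 6.10, *Emcn*, the sialomucin endomucin, by 5.82, and *Mmrn2*, a ligand of endothelial lectins, by 5.74. *Icam2* differed by 5.29, *Esam* by 5.25, *Clec14a* by 4.29, *Ecscr* by 4.10 and *Eng*, a TGF-beta co-receptor, by 2.64. *Tek*, which encodes the angiopoietin receptor TIE2, was the exception, with 8.58, 8.57, 8.52 and 8.36 in WT ECs, against 7.25, 5.87 and 6.65 in WT FBs. Its difference of 1.92 was below 4-fold, with no overlap of the groups, and it was 2.25 without WT-260-FB.

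Of the 20 fibroblast markers, 19 were called higher in WT FBs (19 without WT-260-FB), with a median difference of -4.28 and -4.53 without WT-260-FB. *Col1a2* (chr6:4504814-4541544, plus strand) was at 8.29, 8.34, 7.53 and 8.71 in WT ECs, against 11.996, 13.49 and 12.21 in WT FBs. *Dpt*, encoding the small matrix protein dermatopontin, was at 4.69, 4.72, 4.76 and 5.26 in WT ECs, against 9.57, 9.75 and 9.51 in WT FBs. In both genes all FBs exceeded all ECs, and WT-277-FB had the highest value. *Pdgfra*, the PDGF receptor used to mark cardiac FBs, was at 4.39, 4.68, 4.33 and 4.66 in WT ECs, against 8.17, 8.41 and 8.66 in WT FBs, a difference of -3.90. *Fbln2*, a fibulin of the elastic fibre, was the marker not called, with a difference of -1.56. The ECs were not free of these transcripts, since the list averaged 6.07 to 6.89 in ECs and 10.13 to 10.81 in FBs.

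Markers of other cells moved with the groups. Of 13 pericyte and smooth muscle markers, 10 were called higher in WT ECs (11 without WT-260-FB), and their mean was 7.94 to 8.22 in ECs and 3.59 to 5.79 in FBs. *Mcam* itself, the target of the beads, was at 8.69, 8.67, 8.55 and 8.79 in WT ECs, against 5.34, 2.27 and 2.90 in WT FBs. *Rgs5*, a pericyte gene that limits G protein signaling, was at 11.55, 11.31, 11.64 and 11.24 in WT ECs, against 7.54, 2.71 and 3.80 in WT FBs. Both lay higher in every EC than in any FB, *Rgs5* by 6.75 and the smooth muscle myosin gene *Myh11* by 5.47. *Pdgfrb*, the other standard pericyte marker, was at 8.59, 8.29, 8.43 and 8.21 in WT ECs, against 8.43, 9.04 and 8.64 in WT FBs, a difference of -0.32. No marker of this list was at 0 in ECs, and the share of mural cells in an EC result was not tested.

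Of 15 macrophage markers, 13 were called higher in WT FBs (12 without WT-260-FB), with a list mean of 4.80 to 5.54 in ECs and 6.87 to 7.74 in FBs. *C1qa*, a chain of the complement starter C1q made by macrophages, was at 5.64, 6.22, 5.24 and 5.89 in WT ECs, against 9.47, 7.82 and 9.35 in WT FBs, and *Csf1r*, the receptor for colony-stimulating factor 1, at 5.95, 6.41, 5.52 and 5.79 in WT ECs, against 8.84, 7.99 and 9.03 in WT FBs. Each FB exceeded each EC for both genes. *Cx3cr1* did not follow the list, with a difference of 1.17. Cardiomyocyte markers averaged 4.80 to 6.51 in ECs and 6.54, 1.59 and 2.76 in WT-260-FB, WT-277-FB and WT-283-FB, and 1 of 16 (*Myom1*) was called higher in ECs, against all 16 without WT-260-FB. Erythroid markers averaged 6.54 to 7.27 in ECs and 9.22, 2.14 and 6.56 in the FBs, with 0 of 5 called, and 2 without WT-260-FB.

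Smaller marker lists were only partly covered. Of 11 lymphocyte and neutrophil markers, 4 were compared and 0 called, also without WT-260-FB. Of the epicardial markers, *Gpm6a* was called higher in FBs (-2.14) but not without WT-260-FB, *Wt1* was not called (0.66), and *Msln*, *Upk3b*, *Upk1b*, *Krt19*, *Lrrn4* and *Muc16* were in the FB table only. The Schwann cell markers *Sox10*, *Kcna1* and *Gfra3* were in the EC table only, and of the 3 compared 0 were called, also without WT-260-FB. Among lymphatic endothelial markers, *Flt4* was higher in ECs, whereas *Lyve1*, also a gene of resident macrophages, and *Pdpn*, also a gene of stromal cells, were higher in FBs with differences of -2.39 and -4.18. Without WT-260-FB, 1 lymphatic marker was called in ECs and 3 in FBs. Of 8 endocardial markers, 1 was called (2 without WT-260-FB), *Vwf*, which is also on the endothelial list.

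Transcription factors known from endothelial identity were higher in WT ECs in 17 of 26 cases and in WT FBs in 0, with a median difference of 2.51 and 17 and 0 calls without WT-260-FB. The SOX-F factor gene *Sox17*, active in arterial endothelium, was at 7.73, 7.58, 7.80 and 7.85 in WT ECs, against 4.23, -3.89 and 1.05 in WT FBs. WT-277-FB had 3 reads or fewer, and all ECs exceeded all FBs. Its relatives *Sox18* and *Sox7* differed by 5.09 and 4.77. *Tcf15*, a partner of MEOX2 in the heart endothelium, was at 7.06, 7.24, 6.96 and 7.15 in WT ECs, against 3.90, -3.89 and -0.38 in WT FBs. WT-277-FB again had 3 reads or fewer for this gene. *Gata2*, a zinc finger regulator of endothelial genes, was at 7.96, 7.94, 8.204 and 8.18 in WT ECs, against 5.98, 1.69 and 2.45 in WT FBs, a difference of 4.70. The ETS genes *Erg* and *Ets1* differed by 4.23 and 3.79, whereas the flow-responsive *Klf2* and *Klf4* were not called, with 0.59 and 0.00.

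Transcription factors of FBs were higher in WT FBs in 10 of 21 cases, 9 without WT-260-FB and 8 without WT-277-FB, with a median of -1.86. *Sox9*, a regulator of cartilage and scar matrix genes, was at 3.39, 3.40, 2.79 and 3.75 in WT ECs, against 7.54, 7.30 and 7.82 in WT FBs. The FBs lay above the ECs without overlap, with a difference of -4.22. *Tcf21*, which marks FBs derived from the epicardium, was at 2.95, 2.98, 2.90 and 3.05 in WT ECs, against 7.25, 6.46 and 7.16 in WT FBs. *Tbx20*, a T-box factor of the developing heart, differed by -3.45 and *Twist1*, a factor of mesenchymal cells, by -2.97. The zinc finger genes *Gata4* and *Gata6* were higher in FBs with differences of -2.01 and -2.09, in contrast to *Gata2*. Both were close to the limit of the rule. *Snai2* and *Zeb1*, repressors linked to mesenchymal transition, were not called, with 1.31 and -0.03. *Twist2*, *Osr1*, *Osr2* and *Scx* were in the FB table only.

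Of 20 VEGF and angiopoietin genes compared, 10 were higher in WT ECs and 3 in WT FBs (median 2.01, with 11 and 3 calls without WT-260-FB). *Flt1*, which encodes VEGF receptor 1, was at 10.61, 10.75, 10.95 and 10.74 in WT ECs, against 7.46, 2.24 and 4.15 in WT FBs, and *Kdr*, which encodes the main signaling receptor for VEGF-A, at 10.31, 10.39, 10.32 and 10.03 in WT ECs, against 6.75, 5.03 and 3.85 in WT FBs. All ECs exceeded all FBs for both, and WT-260-FB was the highest FB. *Flt4*, *Nrp2* and *Nrp1*, receptors for VEGF-C and co-receptors, differed by 3.47, 3.35 and 2.11, and *Aplnr*, the apelin receptor, by 6.03.

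Ligand genes gave calls in FBs for *Vegfd* and *Angpt1*, while others were not called. *Vegfd*, a ligand of VEGF receptor 3, was at 1.74, 1.74, 2.01 and 1.52 in WT ECs, against 6.38, 6.79 and 6.21 in WT FBs. *Angpt1*, the activating ligand of TIE2, was at 1.55, 1.17, 1.48 and 1.41 in WT ECs, against 5.16, 4.63 and 4.40 in WT FBs, and the differences were -4.71 and -3.32 with every FB above every EC. *Angptl2*, an angiopoietin-like gene, differed by -2.36. *Vegfa* was at 6.14, 6.21, 6.38 and 6.28 in WT ECs, against 6.42, 7.15 and 6.93 in WT FBs, a difference of -0.58 that was far below the rule, and *Vegfc*, *Pgf* and *Angpt2* were not called either, with 0.57, 0.43 and 1.48. *Esm1*, a tip cell gene, was in the EC table only.

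**Figure D2:**
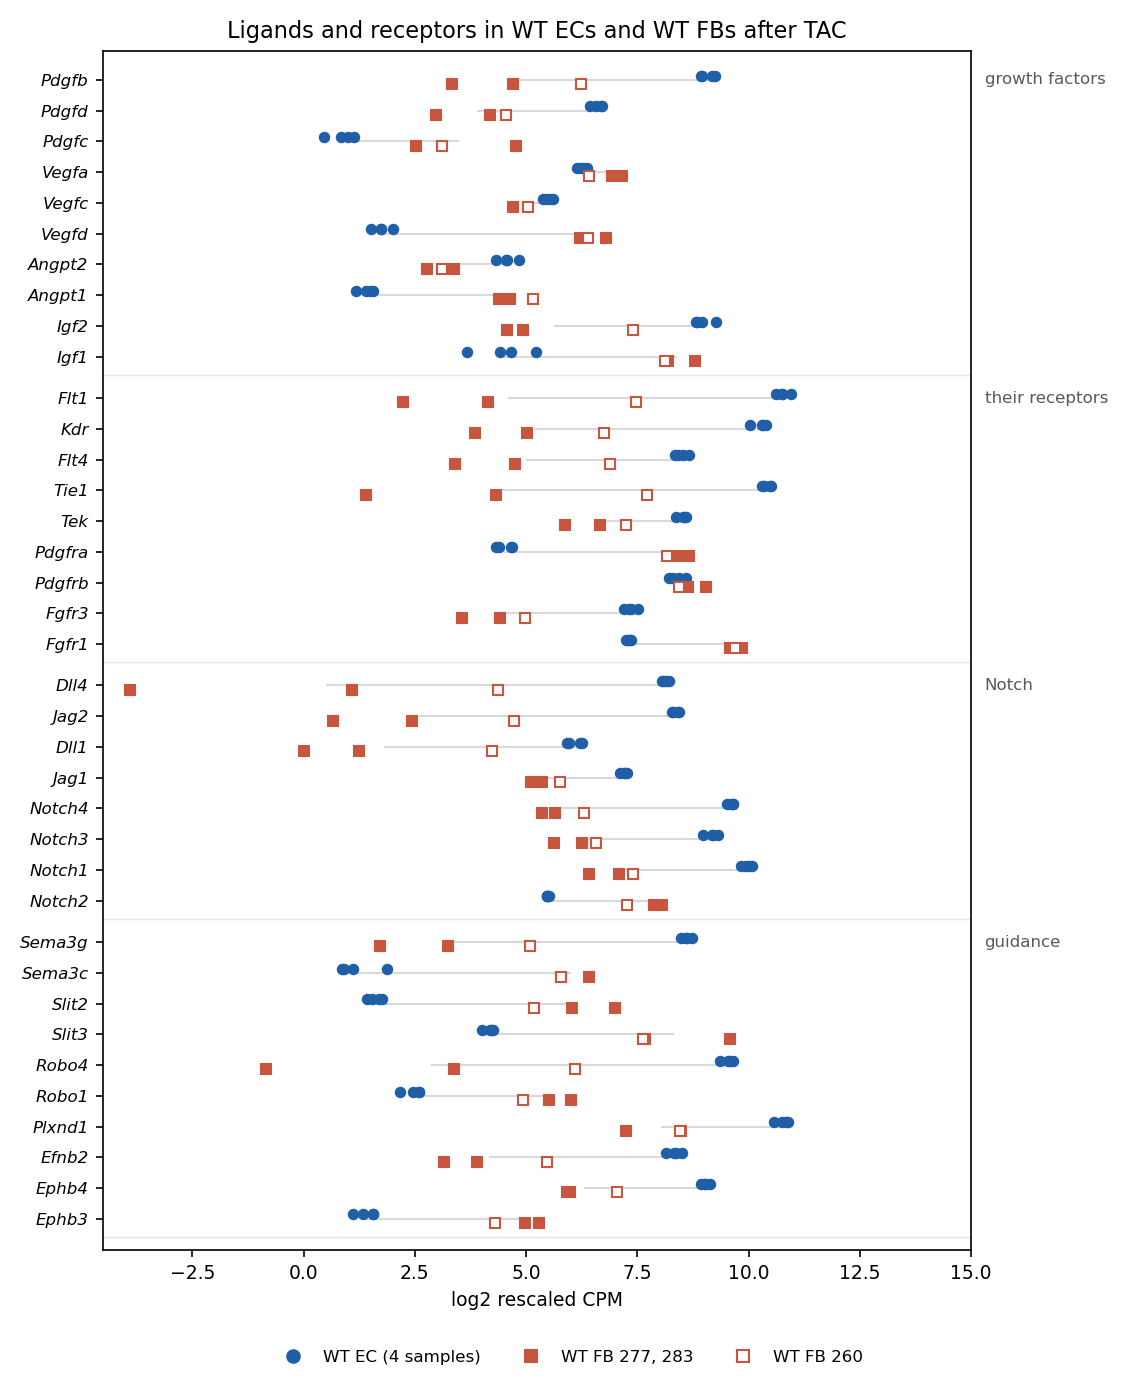
Levels (log2 rescaled CPM) of growth factors, receptors, Notch genes and guidance genes in each WT sample, with ECs as circles, FBs as filled squares and WT-260-FB as open squares. Grey lines join the group means. For *Flt1*, *Kdr* and *Tie1* all ECs lie above all FBs, for *Vegfd*, *Angpt1* and *Pdgfra* all FBs lie above all ECs, and *Pdgfrb* and *Vegfa* lie close together.

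Notch genes were mostly on the EC side, 10 of 17 against 1 in FBs (median 2.997, with 10 and 1 calls without WT-260-FB). *Dll4*, the ligand of arterial and sprouting endothelium, was at 8.22, 8.06, 8.09 and 8.14 in WT ECs, against 4.36, -3.89 and 1.08 in WT FBs, with WT-277-FB at 3 reads or fewer. *Jag2* was at 8.305, 8.29, 8.43 and 8.41 in WT ECs, against 4.72, 0.67 and 2.45 in WT FBs. Both ligands were higher in every EC than in any FB, and *Dll1* differed by 4.25, whereas *Jag1* was not called (1.79). Among receptors, *Notch4*, known from endothelium, differed by 3.83, *Notch3*, known from mural cells, by 3.01 and *Notch1* by 2.997. *Notch2* ran the other way, at 5.48, 5.52, 5.46 and 5.46 in WT ECs, against 7.26, 7.87 and 8.05 in WT FBs, a difference of -2.24. The target genes *Hey1*, *Hey2* and *Nrarp* were higher in ECs by 3.095, 2.64 and 6.09, the last with WT-277-FB at 3 reads or fewer, while *Heyl* was not called (-1.80).

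Of 23 PDGF, FGF and IGF genes, 5 were higher in WT ECs and 8 in WT FBs (median -0.32, with 4 and 9 calls without WT-260-FB). *Pdgfb*, the ligand with which ECs recruit pericytes, was at 8.96, 8.93, 9.24 and 9.17 in WT ECs, against 6.23, 3.34 and 4.71 in WT FBs. *Igf2* was at 8.83, 8.96, 9.27 and 8.81 in WT ECs, against 7.41, 4.58 and 4.93 in WT FBs, and *Igf1*, the other insulin-like growth factor, at 4.41, 4.66, 3.68 and 5.22 in WT ECs, against 8.13, 8.78 and 8.19 in WT FBs. So *Pdgfb* and *Igf2* were higher in all ECs, by 4.32 and 3.33, and *Igf1* in all FBs with a difference of -3.87. Receptors split as well, with *Fgfr3* higher in ECs by 3.03 and *Fgfr1*, *Egfr* and the receptor-like *Pdgfrl* higher in FBs with differences of -2.40, -3.54 and -3.52. The binding protein gene *Igfbp6* differed by -4.68 and *Igfbp4* by -3.03. *Igf1r* and *Fgf1* were not called, with 0.06 and 0.04. *Fgf7*, *Fgf16* and *Fgf18* were in the FB table only, and 1 other member was in the EC table only.

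TGF-beta and BMP genes gave few calls, 2 of 28 in WT ECs and 7 in WT FBs (median -0.72, with 2 and 8 calls without WT-260-FB). *Ltbp2*, a latent TGF-beta binding protein gene of the microfibril, was at 5.21, 5.20, 3.99 and 6.23 in WT ECs, against 8.10, 10.41 and 9.32 in WT FBs. *Fstl1*, a secreted follistatin-like protein gene of FBs, was at 7.72, 7.86, 7.42 and 7.95 in WT ECs, against 10.60, 11.30 and 10.98 in WT FBs. In both cases the FBs stood above the ECs without overlap, and *Gdf6* and *Gdf10*, BMP-family ligands, differed by -3.76 and -3.48. *Id1*, a target of BMP signaling, was higher in ECs by 2.74. The ligands *Tgfb1*, *Tgfb2* and *Tgfb3* were not called, with 0.31, -1.62 and -1.83, nor were the receptors *Tgfbr1*, *Tgfbr2* and *Acvrl1*, with -1.04, -0.77 and 0.51.

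Wnt genes were mainly on the FB side, with 2 of 20 higher in WT ECs and 10 in WT FBs (median -2.002, with 3 and 11 calls without WT-260-FB). *Sfrp2*, a secreted frizzled-related protein gene, was at 1.91, 1.25, 0.47 and 2.11 in WT ECs, against 7.46, 9.57 and 7.80 in WT FBs. Its relative *Sfrp1* was at 3.74, 3.78, 3.72 and 4.46 in WT ECs, against 8.02, 9.45 and 8.99 in WT FBs. The gap was wider than the spread of either group in both genes, at -6.84 and -4.89, and *Frzb* and *Dkk3*, further Wnt modulators, differed by -3.92 and -4.23. Frizzled receptors split, with *Fzd2* and *Fzd1* higher in FBs with differences of -3.97 and -2.76 and *Fzd6* higher in ECs by 3.08. *Fzd4* was at the limit of the rule with 2.03, and its call was lost without WT-34-EC, without WT-35-EC and without WT-277-FB. *Wnt2*, *Wnt4*, *Wnt5a*, *Sfrp4*, *Wif1* and *Rspo1* were in the FB table only.

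Ephrin pairs known from arteries and veins were on the EC side. Of 13 genes, 6 were higher in WT ECs and 3 in WT FBs (median 1.75, with 6 and 3 calls without WT-260-FB). *Efnb2*, the arterial ephrin, was at 8.37, 8.50, 8.33 and 8.14 in WT ECs, against 5.48, 3.89 and 3.17 in WT FBs, and its receptor *Ephb4*, a venous gene, at 8.93, 9.03, 9.02 and 9.13 in WT ECs, against 7.03, 5.92 and 5.996 in WT FBs. Neither overlapped between the cell types. *Ephb1* and *Efna1* differed by 3.99 and 3.65, whereas *Ephb3*, *Epha7* and *Efna5* were higher in FBs with differences of -3.46, -2.80 and -2.31.

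Among 29 semaphorin, plexin and other guidance genes, 9 were higher in WT ECs and 8 in WT FBs (median -0.31, with 9 and 8 calls without WT-260-FB). *Robo4*, the ROBO receptor of endothelium, was at 9.65, 9.55, 9.36 and 9.59 in WT ECs, against 6.09, -0.84 and 3.37 in WT FBs. *Slit2*, a ligand of ROBO receptors, was at 1.53, 1.41, 1.69 and 1.76 in WT ECs, against 5.17, 6.998 and 6.03 in WT FBs. The receptor was higher in all ECs by 6.66, and *Slit2*, *Slit3* and the receptor gene *Robo1* were higher in all FBs with differences of -4.47, -4.13 and -3.02. Class 3 semaphorins, secreted ligands of plexin and neuropilin receptors, ran both ways. *Sema3g* was at 8.49, 8.59, 8.72 and 8.61 in WT ECs, against 5.09, 1.73 and 3.25 in WT FBs, and *Sema3c* at 1.11, 0.91, 1.86 and 0.86 in WT ECs, against 5.79, 5.78 and 6.42 in WT FBs. *Sema3f* was higher in ECs by 3.78, *Sema3b* and *Sema3d* in FBs with differences of -2.62 and -2.44, and the receptor genes *Plxna2* and *Plxnd1* in ECs by 3.36 and 2.71.

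Interstitial collagens were the list with the highest share of calls among the pathway lists. Of 17 genes, 16 were higher in WT FBs (median -3.58, with 0 and 16 calls without WT-260-FB). *Col3a1*, the second fibrillar collagen of heart, was at 8.26, 8.38, 7.43 and 8.72 in WT ECs, against 12.16, 13.76 and 12.87 in WT FBs. *Col6a6*, a chain of the beaded-filament collagen VI, was at 1.93, 1.37, 1.38 and 2.07 in WT ECs, against 6.87, 8.26 and 7.42 in WT FBs. *Col6a6* had the widest gap of the list, -5.83, and the remaining calls ran down to -2.25 for *Col27a1*. *Col23a1*, a membrane collagen, was not called, with -0.37. *Col7a1*, *Col11a1*, *Col22a1*, *Col24a1* and *Col26a1* were in the FB table only.

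Basement membrane genes did not share a direction, with 2 of 23 higher in WT ECs and 7 in WT FBs (median -0.64, with 2 and 5 calls without WT-260-FB). The ubiquitous collagen IV chain gene *Col4a1* was at 12.76, 12.85, 12.23 and 12.80 in WT ECs, against 11.17, 11.38 and 11.88 in WT FBs, and its partner *Col4a2* differed by 1.20. Neither was called, and the groups did not overlap, as for 7009 of the 12779 genes compared. The minor chains *Col4a3*, *Col4a4*, *Col4a5* and *Col4a6* were higher in FBs with differences of -3.02, -3.29, -3.24 and -3.58. Laminin alpha chains differed by chain. *Lama5*, of the mature vessel basement membrane, was at 8.77, 8.74, 8.69 and 8.86 in WT ECs, against 6.01, 4.46 and 3.06 in WT FBs, and *Lama2*, of the muscle basement membrane, at 6.47, 6.49, 6.19 and 6.65 in WT ECs, against 9.17, 9.55 and 9.75 in WT FBs. *Lama3* was higher in ECs by 4.55, and *Lama4*, the other endothelial alpha chain, was not called (0.22).

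**Figure D3:**
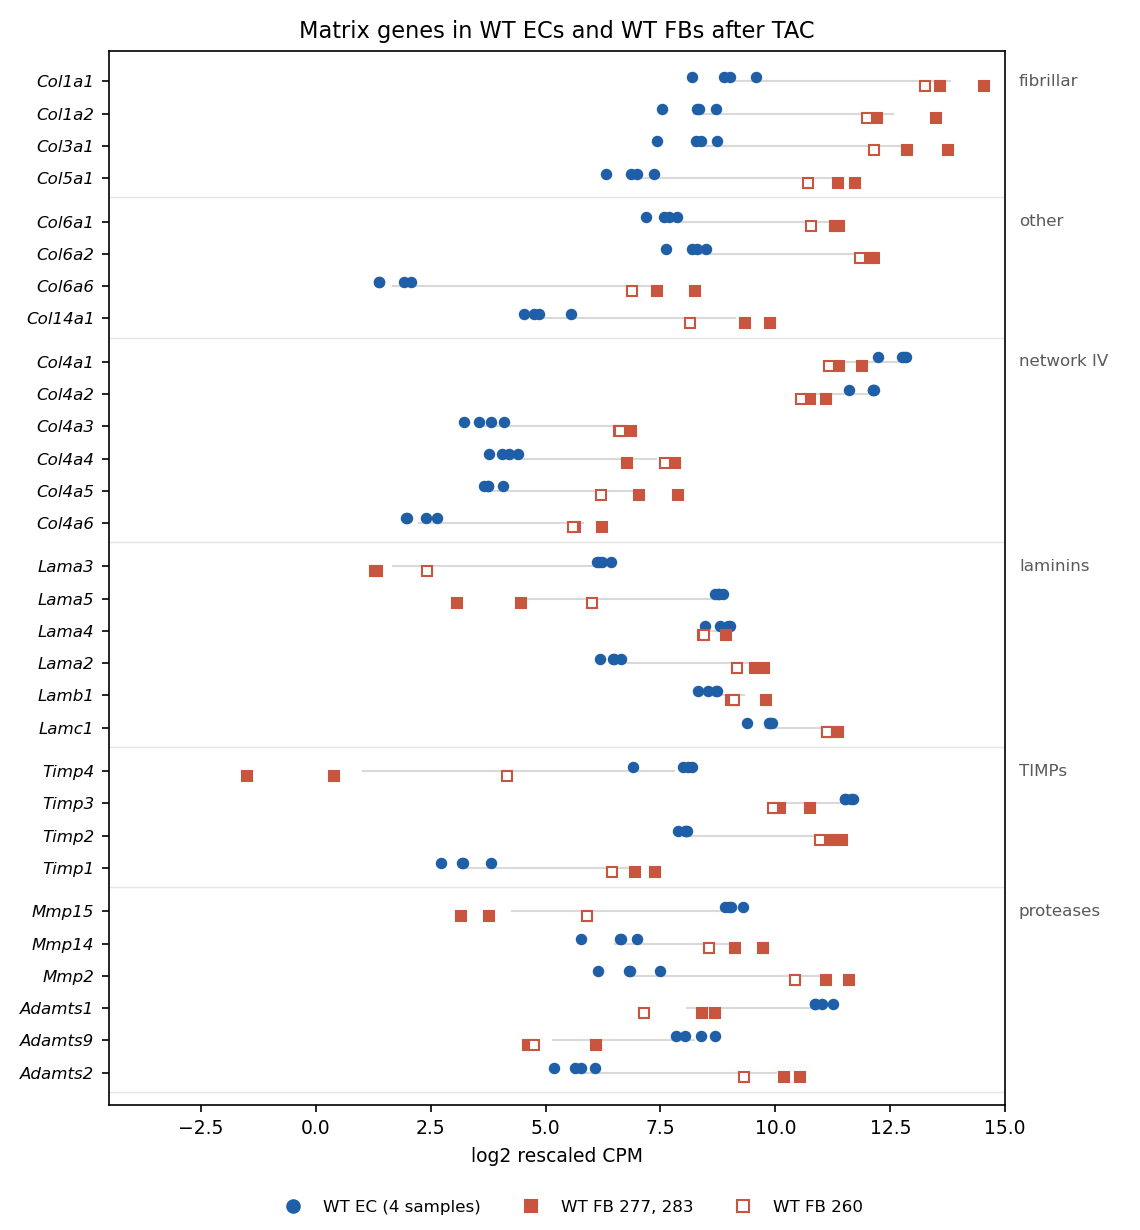
Levels (log2 rescaled CPM) of matrix genes in each WT sample, with ECs as circles, FBs as filled squares and WT-260-FB as open squares. Grey lines join the group means. Fibrillar and collagen VI genes lie higher in all FBs, *Col4a1* and *Col4a2* slightly higher in ECs, and *Timp4*, *Mmp15*, *Lama3* and *Lama5* lie higher in ECs by more than 4-fold.

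Of 40 matrix glycoprotein and elastic fibre genes, 2 were higher in WT ECs and 29 in WT FBs (median -3.15, with 2 and 29 calls without WT-260-FB). *Ccn5*, a matricellular protein gene, was at 2.60, 2.16, 0.82 and 2.45 in WT ECs, against 7.63, 8.54 and 7.56 in WT FBs. *Fbln1*, a fibulin of the elastic fibre and basement membrane, was at 4.30, 4.03, 4.82 and 5.94 in WT ECs, against 10.30, 10.92 and 10.74 in WT FBs. Within the ECs *Fbln1* was highest in WT-35-EC, which was also the EC sample with the highest fibroblast marker mean, and every FB lay above it. *Comp*, a thrombospondin of cartilage and fibrotic tissue, and *Mfap4*, a microfibril protein, differed by -4.91 and -4.76. *Postn*, the periostin gene of activated FBs, differed by -3.22. *Fn1*, fibronectin, was not called, with 10.15, 10.22, 9.86 and 10.27 in WT ECs, against 9.90, 12.69 and 11.26 in WT FBs. The 2 EC-higher members were *Egfl7* and *Mmrn2*, both on the endothelial list.

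Proteoglycans were higher in WT ECs in 0 of 19 cases and in WT FBs in 12 (median -2.56, with 1 and 12 calls without WT-260-FB). Beyond these, 2 members were in the EC table only and 1 in the FB table only. *Fmod*, a small leucine-rich proteoglycan gene, was at 3.83, 3.18, 2.79 and 5.23 in WT ECs, against 7.40, 9.68 and 8.49 in WT FBs, and *Dcn*, the gene of decorin, at 8.11, 8.33, 7.88 and 8.64 in WT ECs, against 12.75, 12.99 and 12.54 in WT FBs. *Ogn*, *Lum*, *Prelp* and the large proteoglycan gene *Vcan* differed by -4.33, -3.97, -3.95 and -3.97. Of the cell-surface members, *Sdc2* and *Sdc4* were higher in FBs with differences of -2.86 and -2.42, and *Sdc1* and *Sdc3* were not called. *Srgn*, the granule proteoglycan of blood cells and endothelium, was also not called (1.84).

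Matrix proteases and their inhibitors gave 4 of 34 calls in WT ECs and 15 in WT FBs (median -1.76, with 4 and 16 calls without WT-260-FB). The tissue inhibitors of metalloproteinases ran in opposite directions. *Timp4*, the member known from heart, was at 8.18, 8.09, 7.99 and 6.91 in WT ECs, against 4.16, -1.49 and 0.40 in WT FBs. *Timp1*, induced in fibrosis, was at 3.19, 3.20, 2.72 and 3.81 in WT ECs, against 6.45, 7.37 and 6.95 in WT FBs. *Timp4* was thus higher in all ECs by 6.77, *Timp1* and *Timp2* in all FBs with differences of -3.70 and -3.20, and *Timp3* was not called (1.33). *Mmp15*, a membrane-type metalloproteinase, was at 8.98, 9.29, 8.90 and 9.03 in WT ECs, against 5.89, 3.15 and 3.78 in WT FBs, whereas *Mmp2*, a gelatinase, was at 6.81, 6.84, 6.13 and 7.48 in WT ECs, against 10.43, 11.59 and 11.09 in WT FBs, and *Mmp14*, its activator, differed by -2.63. *Adamts9* and *Adamts1*, proteoglycan-cleaving enzymes, were higher in ECs by 3.08 and 2.91, and *Adamts2*, which trims procollagen, was higher in FBs with a difference of -4.34. *Htra3*, a secreted serine protease, differed by -4.92 and *Serpinf1*, the gene of the antiangiogenic factor PEDF, by -4.07.

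Of 20 integrins, 3 were higher in WT ECs and 6 in WT FBs (median -0.40, with 4 and 5 calls without WT-260-FB). *Itga6*, a laminin receptor chain, was at 8.48, 8.57, 8.42 and 8.63 in WT ECs, against 6.12, 3.20 and 3.44 in WT FBs. *Itga11*, a receptor chain for fibrillar collagen, was at 1.74, 1.86, 2.04 and 3.18 in WT ECs, against 5.93, 7.27 and 6.995 in WT FBs. The laminin-binding *Itga7* and collagen-binding *Itga1* were also higher in ECs, by 3.03 and 2.66, and *Itgbl1* and *Itgb5* higher in FBs with differences of -3.53 and -2.76. The leukocyte chain *Itgb2* differed by -3.15 and moved with the macrophage markers. The platelet chain *Itga2b* was at 2.15, 2.09, 1.94 and 2.21 in WT ECs, against 7.86, 2.97 and 2.75 in WT FBs, so WT-260-FB was far above the other FBs, and without it the difference was -0.76 with no call. *Itgb1*, the common beta chain, was not called (0.65).

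Cell junction genes were mostly on the EC side, with 11 of 26 higher in WT ECs and 3 in WT FBs (median 1.86, with 13 and 3 calls without WT-260-FB). *Cldn5*, the claudin of endothelial tight junctions, was at 7.72, 7.78, 7.27 and 7.44 in WT ECs, against 5.20, -0.64 and 2.16 in WT FBs, and *Gja5*, the gene of connexin 40 of arterial endothelium, at 6.48, 6.92, 6.80 and 6.92 in WT ECs, against 3.90, -1.67 and 0.84 in WT FBs. WT-260-FB was the highest FB for both, below every EC. *Cdh13*, T-cadherin, differed by 4.95 and *F11r*, a junctional adhesion molecule, by 3.42. Cadherins of mesenchyme were higher in FBs, with -3.08 for *Cdh11* and, close to the limit, -2.01 for *Cdh2*, N-cadherin. *Gja1*, connexin 43, and the scaffold gene *Tjp1* were not called, with 1.42 and 1.96.

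The list of leukocyte adhesion, hemostasis and vessel tone held 11 EC-higher and 3 FB-higher genes among 35 (median 1.04, with 12 and 3 calls without WT-260-FB). *Nos3*, the endothelial nitric oxide synthase gene, was at 9.23, 9.29, 9.25 and 9.37 in WT ECs, against 6.90, 1.22 and 3.47 in WT FBs. *Podxl*, a sialomucin of the luminal surface, differed by 5.44, *Ramp3*, which makes the calcitonin-like receptor respond to adrenomedullin, by 5.12, and *S1pr1*, a sphingosine phosphate receptor of the barrier, by 4.52. *Selp*, P-selectin, was at 5.88, 5.53, 5.75 and 5.47 in WT ECs, against 3.37, 0.88 and -0.22 in WT FBs. *F3*, tissue factor, ran the other way at 0.87, 0.94, 1.60 and 1.25 in WT ECs, against 4.96, 5.19 and 5.11 in WT FBs, and *Ptgis* and *Ptgs2*, which make prostacyclin and its precursor, were higher in FBs with differences of -3.34 and -3.32. *Vcam1*, *Icam1*, *Edn1* and *Thbd* were not called, with -0.82, 1.67, 1.03 and 1.79.

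Genes of lipid and glucose uptake were higher in WT ECs in 12 of 30 cases and in WT FBs in 5 (median 0.86, with 13 and 5 calls without WT-260-FB). *Gpihbp1*, which holds lipoprotein lipase on the capillary wall, was at 9.24, 9.31, 9.22 and 9.16 in WT ECs, against 5.77, -1.34 and 2.30 in WT FBs. *Fabp4*, a fatty acid binding protein of capillary ECs and adipocytes, was at 10.68, 10.67, 10.66 and 10.27 in WT ECs, against 7.89, 3.39 and 3.61 in WT FBs, and *Cd36*, the fatty acid translocase, at 10.88, 10.67, 10.85 and 10.28 in WT ECs, against 7.47, 3.24 and 5.26 in WT FBs. None of the 3 genes overlapped between the groups. The water and glycerol channels *Aqp1* and *Aqp7* differed by 5.24 and 5.01, the caveolar genes *Cav1* and *Cav2* by 4.06 and 4.16, and *Pparg*, the nuclear receptor over fatty acid uptake, by 3.86. *Lpl*, the lipase itself, was not called (1.25). *Lrp1*, an endocytic receptor, and *Apoe*, also made by macrophages, were higher in FBs with differences of -3.80 and -3.20.

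Cytokine and chemokine genes gave 4 of 27 calls in WT ECs and 9 in WT FBs (median -0.78, with 4 and 7 calls without WT-260-FB). *Cxcl12*, which binds CXCR4, was at 10.30, 10.45, 10.63 and 10.18 in WT ECs, against 7.78, 6.89 and 6.97 in WT FBs. *Kitl*, stem cell factor, differed by 4.77, and *Cxcl9*, an interferon-induced chemokine, was at 7.44, 7.36, 6.67 and 7.14 in WT ECs, against 2.02, 2.25 and 0.19 in WT FBs. All 3 were higher in every EC than in any FB. *Cxcl14* was at 2.45, 3.11, 2.22 and 3.25 in WT ECs, against 8.39, 6.88 and 7.54 in WT FBs, and *Il33*, an alarmin of stromal cells, at 1.84, 1.94, 1.58 and 2.57 in WT ECs, against 6.03, 7.22 and 5.42 in WT FBs. *Ccl2*, *Ccl7*, *Ccl9* and *Pf4* were higher in FBs with differences of -2.38, -2.71, -3.13 and -3.09, beside the macrophage markers. *Il6*, *Il1b* and *Tnf* were not called, with 0.15, -0.22 and -0.16.

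Complement was on the FB side, with 0 of 16 genes higher in WT ECs and 10 in WT FBs (median -2.35, with 1 and 10 calls without WT-260-FB). A further 2 members were in the EC table only and 1 in the FB table only. *C3*, the central component, was at 3.72, 4.26, 4.40 and 3.84 in WT ECs, against 10.72, 12.10 and 11.65 in WT FBs. Its difference of -7.44 was the most negative of all named genes, and every FB lay far above every EC. *C4b*, another component, was at 3.68, 4.07, 3.69 and 3.19 in WT ECs, against 7.85, 9.38 and 8.43 in WT FBs. *Serping1*, the C1 inhibitor, differed by -3.62. *C5ar1* and *Cfp*, genes of myeloid cells, differed by -2.36 and -2.51, and the macrophage list was called 13 of 15 in the same direction, a relation that was not tested.

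Antigen presentation genes had 3 of 17 calls in WT ECs and 0 in WT FBs (median 0.93, with 3 and 0 calls without WT-260-FB), and this depended on WT-277-FB, without which 1 and 5 were called, and on WT-35-EC, without which 2 were called in FBs. *Cd274*, which encodes PD-L1, was at 6.69, 6.47, 6.35 and 6.28 in WT ECs, against 3.48, 2.20 and 2.21 in WT FBs. The class I gene *H2-Q7* differed by 2.48, and its call was lost without WT-277-FB. *Nlrc5*, the class I activator, was at the limit of the rule (2.01). Class II genes pointed the other way without a call, *H2-Aa* at 6.59, 6.30, 5.46 and 6.78 in WT ECs, against 9.11, 7.13 and 7.89 in WT FBs, and *Cd74* with a difference of -1.76.

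General cell programs gave next to no calls among the genes found in both tables. Of 23 immediate early genes, which respond to tissue digestion and stress within minutes, 0 were higher in WT ECs (1 without WT-277-FB) and 1 in WT FBs, *Myc*, at 5.93, 5.96, 5.91 and 6.37 in WT ECs, against 7.30, 9.02 and 8.85 in WT FBs. *Fos*, *Jun* and *Egr1* had differences of 0.09, -0.21 and 0.28. Of 18 mitosis genes 0 were called, also without WT-260-FB, with *Mki67* at 0.52 and *Top2a* at 0.06. A further 5 mitosis genes and 2 respiratory chain genes were in the EC table only and could not be compared. Of 35 nuclear genes of the respiratory chain 0 were called, and 3 were higher in ECs without WT-260-FB. These differences ran between -0.35 for *Ndufa2* and 1.62 for *Cox8b*, a muscle form of a cytochrome oxidase subunit.

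**Figure D4:**
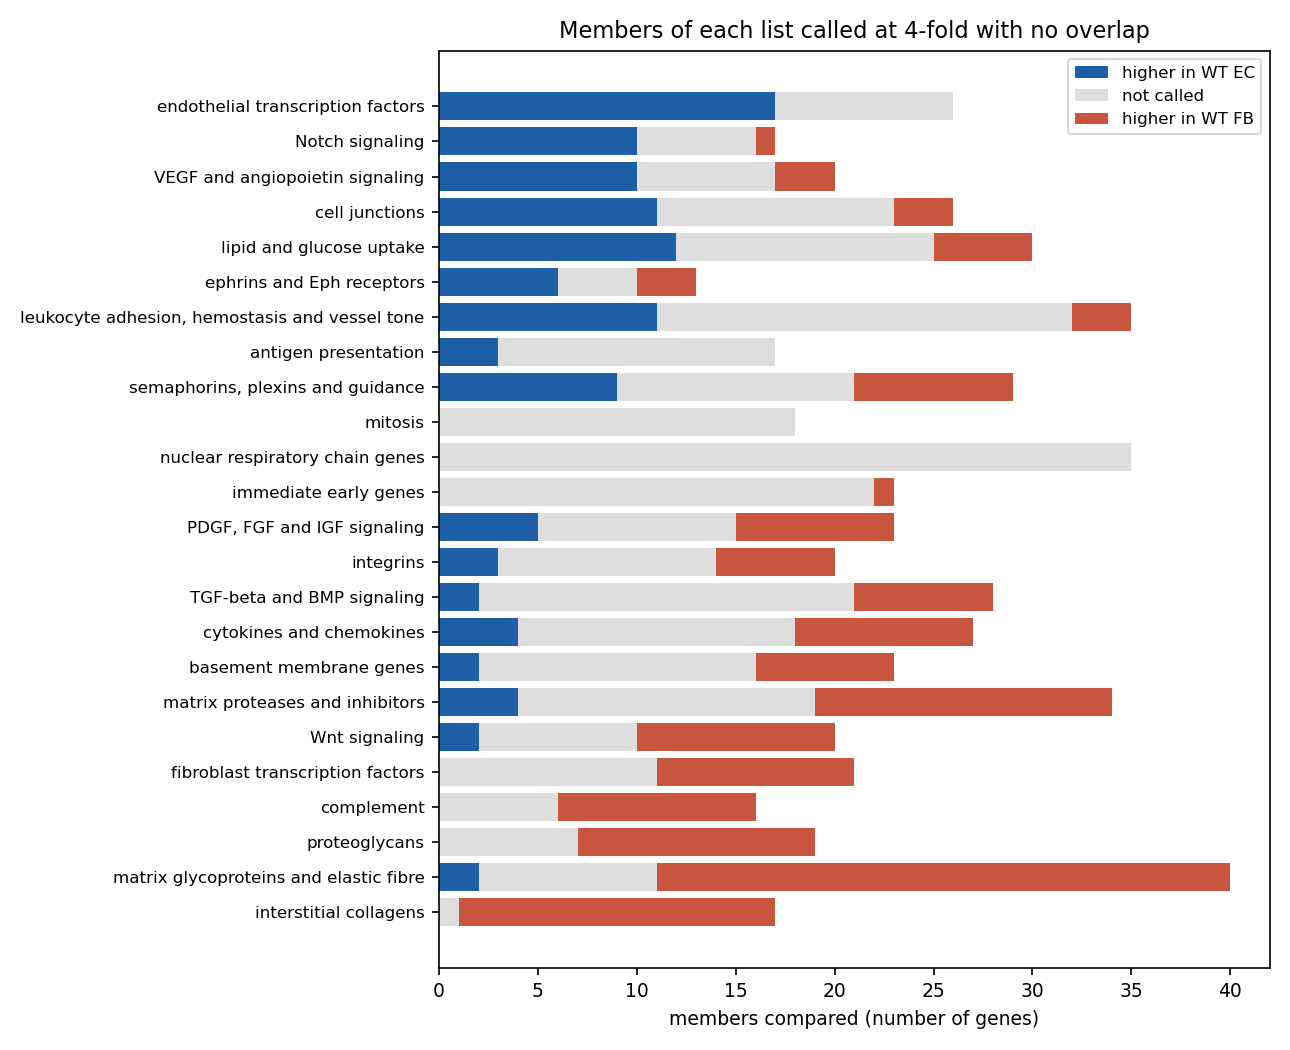
Number of genes compared in each of the 24 pathway lists, split into genes higher in WT ECs (blue), genes not called (grey) and genes higher in WT FBs (red). Endothelial transcription factors have 17 of 26 genes on the EC side, interstitial collagens 16 of 17 on the FB side, and mitosis and respiratory chain genes 0 calls.

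Of the 10 genes with the widest differences on the EC side, *Dll4*, *Sox17* and *Tcf15* are given with their lists. *Car4*, the carbonic anhydrase on the capillary surface, was at 8.16, 7.998, 7.84 and 7.64 in WT ECs, against 4.27, -3.89 and 0.30 in WT FBs, a difference of 7.68, with 9.70 without WT-260-FB and 5.62 without WT-277-FB. *Btnl9*, a butyrophilin-like gene, was at 8.64, 8.57, 9.04 and 8.55 in WT ECs, against 4.90, -3.20 and 1.86 in WT FBs. *Ccdc85a*, *Olfr558* and *Upp1*, the uridine phosphorylase gene, followed with 7.14, 7.10 and 7.04. For all of these WT-277-FB had 3 reads or fewer, and for *Olfr558* and *Upp1* so did WT-283-FB. The size of these differences therefore depends in part on values at the floor. *C1qtnf9*, which encodes a secreted C1q/TNF-related protein, and the lncRNA *Mipepos* overlap on opposite strands of chromosome 14 and differed from each other by at most 0.07 in any sample. The strand setting of the counting is not given in the sources used here, so their reads cannot be told apart, and the pair differed by 7.40 between ECs and FBs.

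On the FB side, after *C3*, *Sfrp2*, *Ccn5*, *Fbln1* and *Col6a6*, came *Chad*, which encodes the collagen-binding chondroadherin, at -1.66, 1.20, 0.69 and 0.54 in WT ECs, against 5.79, 5.38 and 6.12 in WT FBs. *Cpxm1*, a carboxypeptidase-like gene of the matrix, was at 1.48, 1.52, 1.15 and 2.12 in WT ECs, against 6.20, 7.82 and 6.72 in WT FBs. Neither overlapped with the ECs, and the differences were -5.57 and -5.34. *Ugt1a8*, *Ugt1a9* and *Ugt1a10*, glucuronosyltransferase genes that share their last exons, had values within 0.03 of each other and count as a single locus, with *Ugt1a8* at -5.14.

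The same cell types from *Gadlor*-KO mice were set beside the WT values, with no sample in common. In KO samples 96 genes (0.751%) were higher in ECs and 737 (5.77%) higher in FBs by the same rule, with a median difference of 0.02. Of the 737 genes higher in WT ECs, 711 had a positive difference in KO samples and 88 were called, with a median of 1.44. Of the 825 genes higher in WT FBs, 820 had a negative difference and 607 were called, with a median of -2.63. Interstitial collagens were called 16 of 17 in KO FBs as in WT FBs, and *Col1a1* had means of 8.55 ± 0.67 in KO ECs and 12.99 ± 0.62 in KO FBs, a difference of -4.44. *Pecam1* had means of 10.74 ± 0.05 in KO ECs and 8.95 ± 0.28 in KO FBs, a difference of 1.80.

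The narrower EC side of the KO comparison stood beside a higher level of EC transcripts in KO FBs. The endothelial markers averaged 9.31 to 9.35 in KO ECs and 7.81, 7.68 and 7.26 in KO-240-FB, KO-241-FB and KO-242-FB, against 6.65, 2.04 and 3.83 in WT FBs. Mitochondrial transcripts made up 4.24% to 11.6% of the deposited CPM in KO ECs and 31.1% to 45.2% in KO FBs. WT-260-FB, at 59.7%, was the WT FB sample with the highest endothelial level. Endothelial markers were called in 2 of 20 cases in KO samples, endothelial transcription factors in 0 of 26, and fibroblast markers in 18 of 20. The part of EC transcripts in FB samples in this contrast was not tested, and no difference between genotypes was tested.

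**Figure D5:**
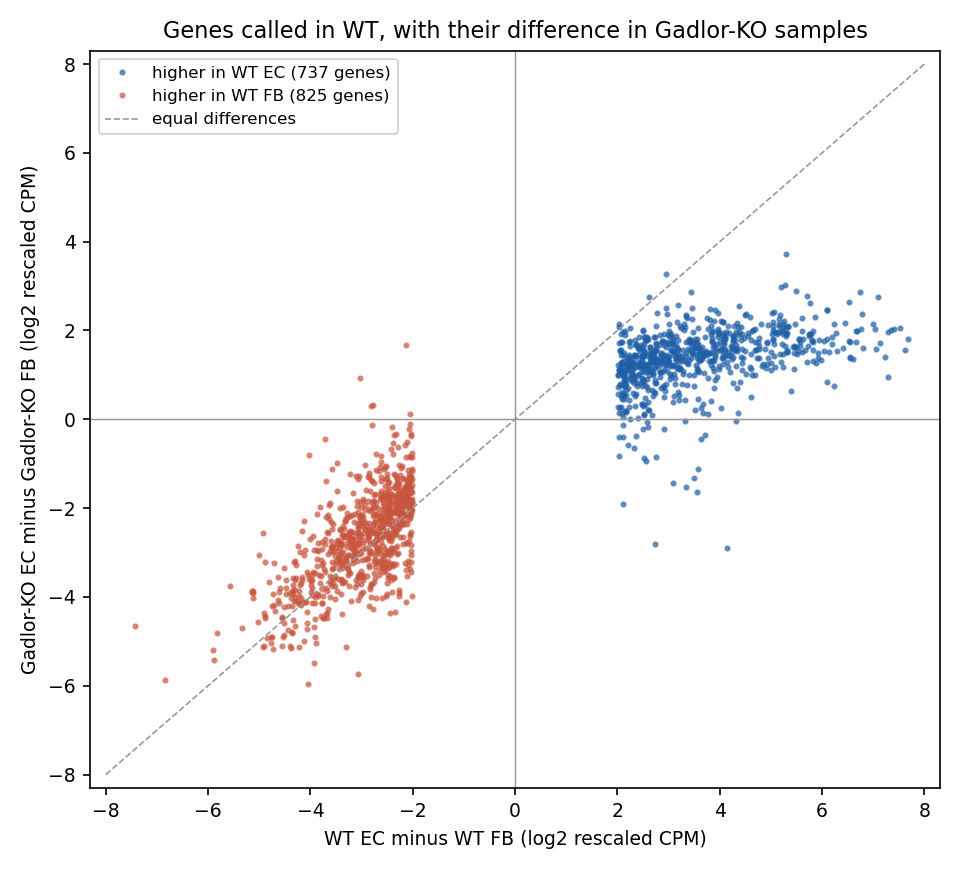
Difference between ECs and FBs in WT samples (horizontal, log2 rescaled CPM) and in *Gadlor*-KO samples (vertical, same unit) for the 737 genes higher in WT ECs (blue) and the 825 higher in WT FBs (red). The dashed line marks equal differences. Blue points have a median of 1.44 in KO and 3.26 in WT samples, and red points one of -2.63 in KO and -2.77 in WT samples.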

How the data were processed

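The authors sequenced mRNA as stranded 50-base single-end reads and aligned it with bowtie2 to mm10 (GRCm38). Annotation used biomaRt and testing edgeR, while the submitters' notes name DESeq2, and counting tool, strand setting, filter and versions are not given in the sources used here. The deposited unit is log2 CPM per transcript, normalised by the authors in 1 table for ECs and 1 for FBs. Reads per library were estimated here from the steps between the 60 lowest values. A floor of 3 reads was used for each library.

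The 27016 EC and 26506 FB transcripts were joined on Ensembl ID (25241 shared). The joined transcript with the highest mean was kept per symbol, 17 mitochondrial symbols were removed, and each sample was rescaled to a total of 1e+06 over the 12779 remaining genes. The removal of 1004 EC-only and 661 FB-only symbols leaves genes detected in both tables. Calls needed a 4-fold difference of means on the log2 scale without overlap of samples. The steps were tested on simulated data with the spread of the ECs and shifts well above 4-fold. The simulation did not cover the wider spread among FBs or differences near the limit. No test of samples was run, because the tables were normalised separately. Named genes were the marker lists, up to 4 called genes per list and direction with a mean of at least 10 rescaled CPM in the higher group, the 10 widest differences per direction, and uncalled relatives of called genes. Genes named beyond these were chosen after their values were seen. Members and gene lists were chosen with earlier results of these data known. Alternatives were other scalings, a pseudocount of 1 CPM, thresholds of 2-fold and 16-fold, means over all joined transcripts, and leaving out each sample. Python 3.11.15, pandas 2.3.3, numpy 2.4.6 and matplotlib 3.10.9 were used.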

Additional observations from a re-analysis of the deposited data

Results flagged for a closer look

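Of 195 sets of 4 WT EC values examined, 13 held a sample far from the other 3 by Dixon's criterion, which chance gives in about 1 in 20 sets. WT-35-EC was the sample in 8 of them. *Dpt* was at 5.26, *Serping1* at 7.90, *Sfrp1* at 4.46 and *Fzd2* at 2.73 in WT-35-EC, the highest of the ECs for these genes of FBs, where the fibroblast marker mean was also the highest of the ECs (6.89). WT-35-EC was the far sample for *Gpm6a* at 1.09, *Myc* at 6.37, *Timp4* at 6.91 and *Fabp4* at 10.27 as well.

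WT-34-EC was far from the others for the smooth muscle genes *Acta2* at 10.07 and *Myh11* at 9.36, for *Ecscr* at 7.04, and for the mean of the 2 epicardial markers at 4.44. *Pecam1* was at 10.75 in WT-32-EC, against 10.62 to 10.63 in the other ECs.

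*Tmprss2*, a membrane serine protease gene, had opposite differences in the genotypes, -2.91 in KO samples and 4.13 in WT samples. Its means were -0.08 ± 0.22 in KO ECs and 2.82 ± 0.45 in KO FBs, and its WT values were 5.08, 4.42, 4.90 and 4.62 in WT ECs, against -0.12, 0.13 and 1.85 in WT FBs. *Wdr95* differed by -2.81 in KO samples and by 2.73 in WT samples, with means of -0.45 ± 0.59 in KO ECs and 2.37 ± 0.47 in KO FBs. The difference between genotypes was not tested for either gene.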

How the results depend on the processing

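No paired analysis was possible because the EC and FB samples share no replicate numbers. A total that kept mitochondrial genes gave 1239 genes higher in ECs and 464 higher in FBs, a 2-fold threshold 1743 and 1663, and a 16-fold threshold 237 and 103, against 737 and 825 as reported. Leaving out each WT sample in turn gave 708 to 954 EC-higher and 809 to 843 FB-higher genes, with WT-260-FB giving the highest EC-higher count. In KO samples the same gave 66 to 148 EC-higher and 699 to 807 FB-higher genes, with 148 reached without KO-240-FB. Scaling to a total without the 100 highest genes gave 674 and 906, median-centred scaling 705 and 873, and a pseudocount of 1 CPM 680 and 724. Of the 184 called genes that the naming rule gave, 15 lost the call with mitochondrial genes kept, 10 in the values as deposited, and 0 to 5 under each other alternative at the 4-fold threshold. With each WT sample left out in turn, 674 to 734 of the 737 EC-higher and 755 to 808 of the 825 FB-higher genes kept the call and 0 changed sign, a count added after the data were seen. Levels near 0 reads in WT-277-FB limit how far the widest EC differences can be read, although that library was estimated at 47.5 M reads. Samples without separate-animal labels and separate normalisation limit every EC and FB difference. So does selection by CD146, which pericytes and smooth muscle cells also carry, and their share in the EC samples was not tested.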

Other observations

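Some gene families were also uneven between the cell types, and they were chosen after their values were seen. Their counts are to be read against 5.77% higher in WT ECs and 6.46% higher in WT FBs over all genes. All 5 *Gimap* genes compared, which encode GTPases of immune cells and endothelium, were higher in WT ECs (5 without WT-260-FB, median 5.77), and 1 was called in KO samples. Of 8 *Gbp* genes, interferon-induced GTPases, 6 were higher in WT ECs (5 without WT-260-FB, median 2.26), with 0 called in KO samples. *Rapgef* exchange factors for RAP1 were higher in ECs in 4 of 6 cases (5 without WT-260-FB, median 2.78), with 0 called in KO samples. *Rgs* regulators of G protein signaling were higher in ECs in 5 of 10 cases (5 without WT-260-FB, median 0.93), among them the pericyte marker *Rgs5*. *Rgs1* and *Rgs10* leaned to FBs without a call, at -1.83 and -1.97. In KO samples 1 *Rgs* gene was called in each direction. Of 6 *Slfn* genes, 2 were higher in ECs (2 without WT-260-FB, median 0.58), with 0 called in KO samples.

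Families of myeloid cells were on the FB side beside the macrophage markers. Of 8 *Tlr* genes, 5 were higher in WT FBs (median -2.12), and of 7 *Ms4a* genes, 6 (median -2.55). Both gave the same counts without WT-260-FB, 5 and 6, and in KO samples. The called *Tlr* genes were not all the same in KO samples. *Tlr5* was called in WT only (-3.58, against -1.13 in KO), and *Tlr2* in KO only (-2.57, against -1.17 in WT). The part of macrophages in these values was not tested.

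Among 880 lncRNAs compared, 73 (8.3%) were called higher in WT ECs and 49 (5.57%) higher in WT FBs, against 5.77% and 6.46% of all genes. Without WT-260-FB the counts were 90 (10.2%) and 52 (5.91%), against 7.47% and 6.33%. *Meg3*, an imprinted lncRNA, was at 5.85, 5.46, 5.92 and 6.01 in WT ECs, against 9.69, 10.44 and 9.81 in WT FBs. *Rian*, from the same imprinted locus, differed by -3.30, and *Dnm3os*, the host transcript of miR-199a and miR-214, by -2.40. All FBs were above all ECs for these genes. *Malat1* and *Neat1*, nuclear lncRNAs of most cells, were not called, with -0.29 and -0.28. *Bvht*, known from cardiac commitment in mouse cells, was higher in ECs by 2.14. Antisense lncRNAs cannot be told apart from their overlapping genes where the strand setting of the counting is not given, as for *Tbx3os1* (4.43) and *Slfn5os* (2.65).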
